A study of Mus musculus with 16 samples.

Results

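The 10 genes described here encode enzymes of the later steps of branched-chain amino acid breakdown and of the propionyl-CoA route that valine and isoleucine share with odd-chain fatty acids. They were chosen by name, as the rows called Ivd, Mccc1, Mccc2, Acadsb, Acad8, Hibadh, Aldh6a1, Pcca, Pccb and Mut in tables of 24354 rows, and all 10 were found at rest and after exercise. RNA had been sequenced from quadriceps muscle of male mice of the C57BL/6 strain, all aged 4 months and fed normal chow. Of the 4 groups, 2 were wild type and 2 carried the HDAC3 knockout (HDAC3-KO in the labels), and each genotype was sampled at rest and after treadmill running, with 3 libraries per group. Running comprised 3 bouts of 1 h at 10 m/min, separated by 1 h of rest, with tissue taken 2 h after the last bout. HDAC3 is a histone deacetylase that works within the NCoR and SMRT corepressor complexes. How HDAC3 had been deleted, and in which cells of the muscle, was not stated in the labels, and neither was whether each library came from its own animal. P-values therefore measure the spread between these libraries, which can be technical.

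Leucine, isoleucine and valine are first transaminated and then oxidised to acyl-CoA esters by the branched-chain ketoacid dehydrogenase complex, after which each amino acid follows its own mitochondrial route. Isovaleryl-CoA dehydrogenase (Ivd) and the biotin enzyme methylcrotonyl-CoA carboxylase (subunits Mccc1 and Mccc2) act on the leucine route. Short/branched-chain acyl-CoA dehydrogenase (Acadsb) acts on isoleucine, and isobutyryl-CoA dehydrogenase (Acad8), 3-hydroxyisobutyrate dehydrogenase (Hibadh) and methylmalonate semialdehyde dehydrogenase (Aldh6a1) act on valine. The propionyl-CoA formed at the end is carboxylated by the biotin enzyme propionyl-CoA carboxylase (subunits Pcca and Pccb) and then rearranged by the cobalamin enzyme methylmalonyl-CoA mutase (Mut) to succinyl-CoA, which enters the citric acid cycle. Skeletal muscle is a main site of branched-chain transamination, and 3-hydroxyisobutyrate can leave the muscle cell at the Hibadh step.

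Levels are given in FPKM, a unit that corrects for the length of a transcript and can therefore be set side by side between genes. Library sums lay between 454359 and 522584 FPKM, and between 10123 and 10544 genes had at least 1 FPKM. The depth of sequencing was unknown, and error could be judged only from the spread of the 3 libraries in each group. The transcript of the deleted gene, Hdac3, fell by 1.99 on the log2 scale in resting knockout muscle (SE 0.17, limma adjusted p = 0.00487) and fell by 2.33 in exercised knockout muscle (SE 0.15, limma adjusted p = 0.00111), with 4.13 to 8.16 FPKM in the 6 knockout libraries beside 23.7 to 33.3 FPKM in the 6 wild-type libraries. The muscle fibre markers summed to between 53120 and 71678 FPKM in every library, among them Acta1 and Myh4. Brown adipocyte markers, 3 of 3 listed, summed to 0.334 to 0.608 in wild type and 0.398 to 0.861 FPKM in knockout at rest. After exercise they summed to 0.494 to 3.47 and 0 to 0.397 FPKM. Among them Ucp1 was listed at 0 in all 12 libraries, while Cidea reached 3.47 FPKM in exercised wild-type library 1. White adipocyte markers, 8 of 8 listed, summed to 331 to 488 in wild type and 333 to 445 FPKM in knockout at rest, and to 356 to 608 and 335 to 652 FPKM after exercise. Fabp4, at 301 to 632 FPKM, made up most of each sum. Adipoq stood at 1.08 to 6.62 FPKM and Plin1 at 0 to 1.04 FPKM over the 12 libraries. Macrophage markers, 5 genes, summed to 13.3 to 17.5 in wild type and 14.7 to 20.2 FPKM in knockout at rest, and to 9.31 to 10 and 19.1 to 23.4 FPKM after exercise. Fewer cells of a type and less RNA per cell cannot be told apart in such bulk samples.

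Pcca and Ivd rose in resting knockout muscle, by 1.85-fold and 1.78-fold of the group means, and Pcca also rose after running, by 2.26-fold. No other member passed the tests, and none fell. The verbs rose and fell are kept for genes that passed limma on log2(FPKM + 1) and also had a q at or under 0.05 with the same direction in the authors' deposited table. At rest 2 of the 10 members met this rule, both higher, beside 4.27% of 9204 tested genes in either direction (2.74% higher and 1.53% lower). After exercise 1 member met it, higher in the knockout, beside 3.43% of 9037 tested genes (1.39% higher and 2.04% lower). The authors' deposited q alone called the same 2 members at rest, where it called 10.8% of genes (5.9% higher and 4.94% lower), and the same 1 after exercise, where it called 9.57% (4.66% higher and 4.91% lower).

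**Figure D1:**
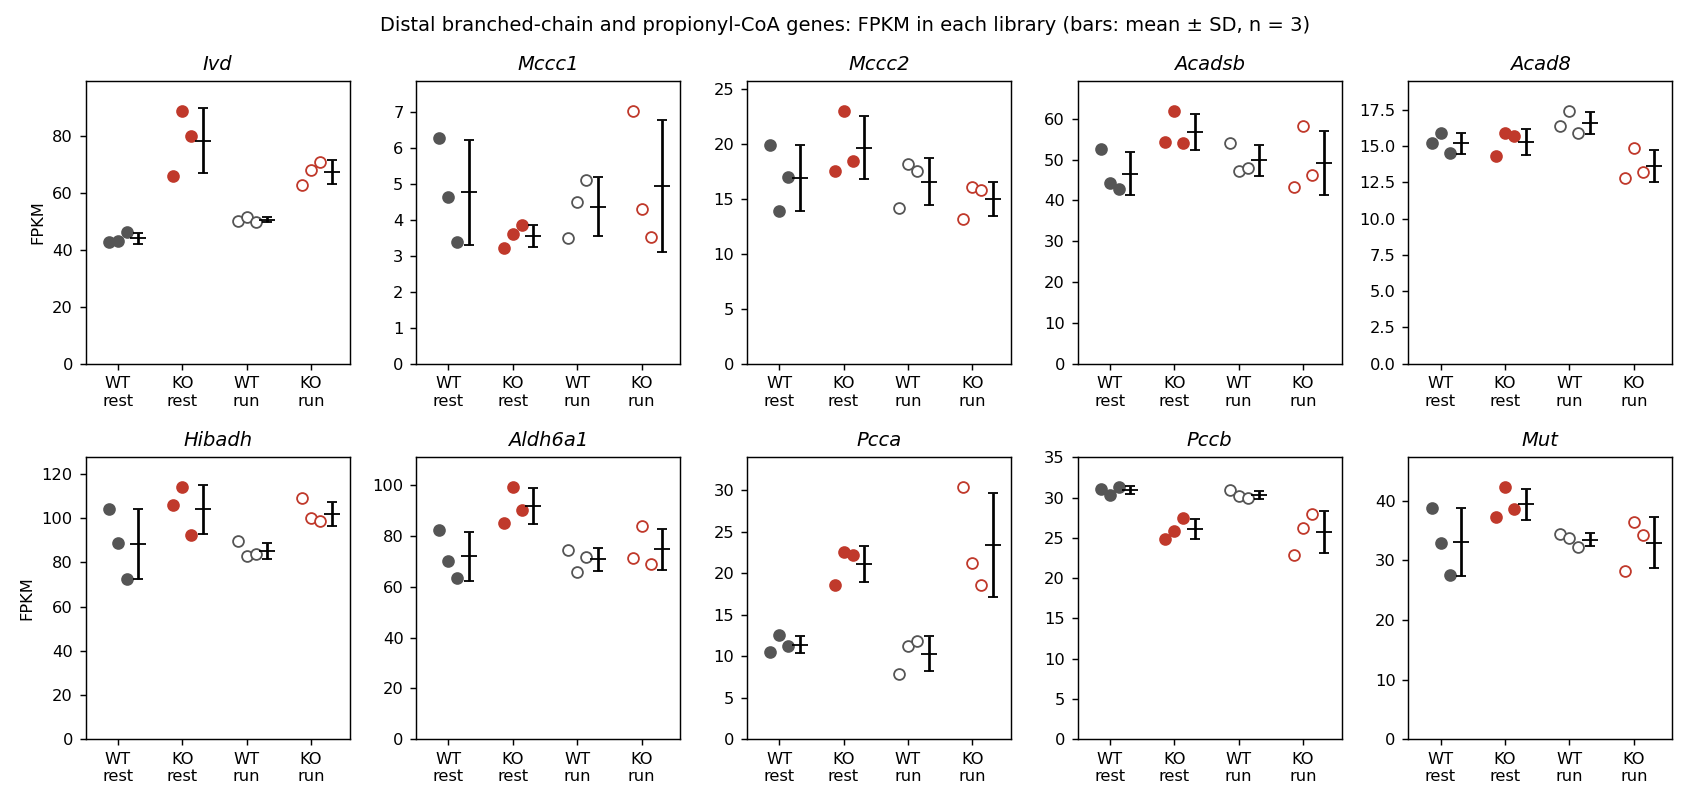
FPKM of the 10 genes in each of the 12 libraries, on the vertical axis, by genotype and condition (WT wild type, KO HDAC3 knockout, run after treadmill running). Circles are libraries and bars show the mean ± SD of 3 libraries. The knockout libraries of Ivd and Pcca stand above the wild-type libraries in both conditions, and those of Pccb stand below them.

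The members spanned a wide range of transcript levels. In resting wild-type muscle Hibadh was highest at 88.3 ± 15.7 FPKM (SD, n = 3), followed by Aldh6a1 at 71.9 ± 9.68 FPKM, and the library ranges of these neighbours overlapped. Acadsb (46.5 ± 5.24 FPKM) and Ivd (44.1 ± 1.92 FPKM) came next with overlapping ranges, then Mut (33.1 ± 5.66 FPKM) and Pccb (30.9 ± 0.511 FPKM), also overlapping. Mccc2 (16.9 ± 2.99 FPKM) and Acad8 (15.2 ± 0.711 FPKM) overlapped as well, and Pcca (11.4 ± 1.04 FPKM) and Mccc1 (4.76 ± 1.45 FPKM) stood apart at the bottom. In resting knockout muscle Ivd (78.4 ± 11.4 FPKM) lay above Acadsb (56.7 ± 4.41 FPKM) without overlap. There Pcca (21.1 ± 2.19 FPKM) had a higher mean than Mccc2 (19.7 ± 2.87 FPKM), with overlapping ranges, and a higher mean than Acad8 (15.3 ± 0.898 FPKM). Mccc1 was the lowest member in all 4 groups. Its coefficient of variation was 30.4% in resting wild-type libraries and 37.2% in exercised knockout libraries, the highest of any member in those groups, while that of Pccb in wild type was 1.66% at rest and 1.63% after exercise.

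On the leucine route, Ivd catalyses the first acyl-CoA dehydrogenation. At rest Ivd measured 42.9, 43.2 and 46.3 FPKM in wild-type libraries 1, 2 and 3 and 66.2, 88.8 and 80.1 FPKM in knockout libraries 1, 2 and 3. The lowest knockout library lay well above the highest wild-type library. Ivd rose at rest (by 0.81 ± 0.12 (SE) on the log2 scale, limma adjusted p = 0.0187, and q = 0.00119 in the authors' deposited table). The limma call was lost without wild-type library 2 (adjusted p = 0.0859) and without knockout library 3 (adjusted p = 0.0774). After exercise Ivd measured 50.3, 51.7 and 50 in the wild-type libraries and 62.9, 68.3 and 71.1 FPKM in the knockout libraries. The genotypes did not overlap there either, but Ivd passed neither test (log2 difference 0.40, SE 0.10, limma adjusted p = 0.0782, and q = 0.113 in the authors' deposited table).

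The 2 subunits of methylcrotonyl-CoA carboxylase, the next leucine-specific enzyme, showed overlapping genotypes throughout. Mccc1, the biotin-carrying subunit, measured 6.26, 4.63 and 3.38 in resting wild type and 3.22, 3.59 and 3.84 FPKM in resting knockout (log2 difference -0.31, 95% interval -0.76 to 0.14, limma adjusted p = 0.399). After exercise it measured 3.50, 4.49 and 5.11 in wild type and 7.01, 4.29 and 3.52 FPKM in knockout (log2 difference 0.12, 95% interval -0.41 to 0.64, limma adjusted p = 0.819). Its high exercised value stood in knockout library 1, and the other two knockout libraries lay within the wild-type range. Mccc2, the carboxyltransferase subunit, measured 19.9, 13.9 and 17.0 FPKM against 17.6, 23.0 and 18.5 FPKM at rest (log2 difference 0.21, 95% interval -0.16 to 0.58, limma adjusted p = 0.487). Following running the values were 14.2, 18.2 and 17.6 FPKM against 13.2, 16.1 and 15.8 FPKM (log2 difference -0.14, 95% interval -0.46 to 0.19, limma adjusted p = 0.638). The intervals of both subunits included 0 in both conditions. A non-coding transcript, Mccc1os, overlaps Mccc1 in the reference annotation and was listed at 0 to 0.207 FPKM. Whether reads were assigned by strand is not known from the labels, so reads from any bases these neighbours share cannot be told apart.

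Acadsb, the isoleucine dehydrogenase, did not overlap between genotypes at rest. It measured 52.6, 44.2 and 42.9 in wild type and 54.3, 61.8 and 54.1 FPKM in knockout (log2 difference 0.28, SE 0.12, limma adjusted p = 0.211). After exercise it measured 54.1, 47.2 and 48.0 in wild type and 43.3, 58.1 and 46.1 FPKM in knockout, which overlapped (log2 difference -0.03, 95% interval -0.34 to 0.29, limma adjusted p = 0.931). Acad8, its counterpart for valine, was nearly level at rest, with 15.2, 15.9 and 14.5 in wild type and 14.3, 15.9 and 15.7 FPKM in knockout (log2 difference 0.01, 95% interval -0.22 to 0.24, limma adjusted p = 0.969). After exercise all knockout libraries of Acad8, at 12.8, 14.9 and 13.2 FPKM, lay below the wild-type libraries at 16.4, 17.4 and 15.9 FPKM (log2 difference -0.26, SE 0.11, limma adjusted p = 0.245). Neither dehydrogenase passed the tests in either condition. Within a library, the ratio of Ivd to Acad8 FPKM was 2.82, 2.72 and 3.21 in resting wild type and 4.64, 5.57 and 5.12 in resting knockout, and 3.08, 2.97 and 3.14 against 4.92, 4.59 and 5.37 after exercise. These ratios did not overlap between genotypes (2-sided exact permutation p = 0.1 in each condition, the smallest that 3 against 3 libraries can give, and 0.15 adjusted over 12 comparisons of 6 ratios). They hold the same Ivd values as the tests above and are not separate support for them.

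Hibadh and Aldh6a1, which act in turn on the valine route, were the most abundant members. Hibadh measured 104, 88.6 and 72.5 in resting wild type and 106, 114 and 92.3 FPKM in resting knockout, with overlap (log2 difference 0.24, 95% interval -0.11 to 0.60, limma adjusted p = 0.403). After running it stood at 89.5, 82.8 and 83.7 in wild type and 109, 100 and 98.7 FPKM in knockout, without overlap (log2 difference 0.26, SE 0.10, limma adjusted p = 0.210). The wild-type libraries of Hibadh were widely spread at rest (coefficient of variation 17.7%) and close together after exercise (4.27%). Aldh6a1 measured 82.3, 70.1 and 63.2 in resting wild type and 85.1, 99.1 and 90.1 FPKM in resting knockout, without overlap (log2 difference 0.35, SE 0.12, limma adjusted p = 0.160). After exercise it measured 74.5, 65.8 and 71.7 in wild type and 71.1, 83.8 and 68.9 FPKM in knockout, with overlap (log2 difference 0.07, 95% interval -0.20 to 0.35, limma adjusted p = 0.771). No difference of these enzymes passed a test. In the reference annotation Bbof1 overlaps Aldh6a1, and the non-coding Gm33047 and LOC115490472 overlap Hibadh. Without strand, reads from any bases these genes share cannot be told apart.

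The propionyl-CoA steps held the member with the largest knockout difference. Pcca, the biotin-carrying subunit of propionyl-CoA carboxylase, measured 10.5, 12.6 and 11.2 in resting wild type and 18.6, 22.6 and 22.2 FPKM in resting knockout. In exercised muscle its values were 7.91, 11.3 and 11.8 in wild type and 30.4, 21.2 and 18.6 FPKM in knockout. The genotypes did not overlap in either condition, and exercised knockout library 1 held the highest value of all 12. Pcca rose at rest (by 0.83 ± 0.12 (SE) on the log2 scale, limma adjusted p = 0.0162, and q = 0.00119 in the authors' deposited table) and after exercise (by 1.09 ± 0.21 (SE), limma adjusted p = 0.0384, and q = 0.00132 in the authors' deposited table). At rest the limma call was lost without wild-type library 2 (adjusted p = 0.0683) and without knockout library 3 (adjusted p = 0.0696). After exercise each of the 6 fits without 1 library missed the threshold (log2 difference 0.90 to 1.24, limma adjusted p 0.0645 to 0.0961), and without knockout library 1 the values were 0.90 and 0.0809. Fitted over all listed genes with no filter, limma gave an adjusted p of 0.0813. Several annotated loci overlap Pcca in the reference annotation, the pseudogenes Gm9399 and Gm18143, the protein-coding Gm46487 and the non-coding Gm46489. Without strand, reads from any bases they share with Pcca cannot be told apart.

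Pccb, the carboxyltransferase partner of Pcca, measured 31.1, 30.3 and 31.3 in resting wild type and 24.9, 25.9 and 27.4 FPKM in resting knockout. After exercise it measured 30.9, 30.2 and 29.9 in wild type and 22.9, 26.2 and 28.0 FPKM in knockout. All knockout libraries lay below all wild-type libraries in both conditions, but the difference was small and passed no test (log2 difference -0.24, SE 0.09, limma adjusted p = 0.181 at rest, and -0.23, SE 0.11, limma adjusted p = 0.300 after exercise). Mut, the mutase that follows, measured 38.8, 32.9 and 27.5 in resting wild type and 37.2, 42.3 and 38.7 FPKM in resting knockout, with overlap (log2 difference 0.26, 95% interval -0.06 to 0.58, limma adjusted p = 0.331). Following running the values were 34.5, 33.7 and 32.2 FPKM against 28.3, 36.4 and 34.3 FPKM (log2 difference -0.03, 95% interval -0.31 to 0.26, limma adjusted p = 0.928). The mutase transcript thus overlapped between genotypes in both conditions.

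The balance of the carboxylase partners was then read within each library. The ratio of Pcca to Pccb FPKM within a library, which does not depend on how libraries were scaled, was 0.338, 0.414 and 0.358 in resting wild type and 0.747, 0.873 and 0.811 in resting knockout. After exercise it was 0.256, 0.374 and 0.395 in wild type and 1.33, 0.808 and 0.663 in knockout. As a geometric mean the ratio was 2.19-fold higher in the knockout at rest and 2.66-fold higher after exercise, with no overlap between genotypes (2-sided exact permutation p = 0.1 in each condition, 0.15 adjusted). This ratio holds the same Pcca values as the tests above and is not separate support for them. In exercised knockout library 1 Pcca exceeded Pccb, and in the other 11 libraries it did not. For the other biotin enzyme, the ratio of Mccc1 to Mccc2 was 0.282 ± 0.0731 in resting wild type and 0.182 ± 0.0255 in resting knockout (SD, n = 3, exact permutation p = 0.2, 0.267 adjusted), and 0.262 ± 0.0252 and 0.340 ± 0.167 after exercise (exact permutation p = 0.8, also after adjustment). It overlapped between genotypes in both conditions. The ratio was 0.531 in exercised knockout library 1, the library with the highest Pcca to Pccb ratio.

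**Figure D2:**
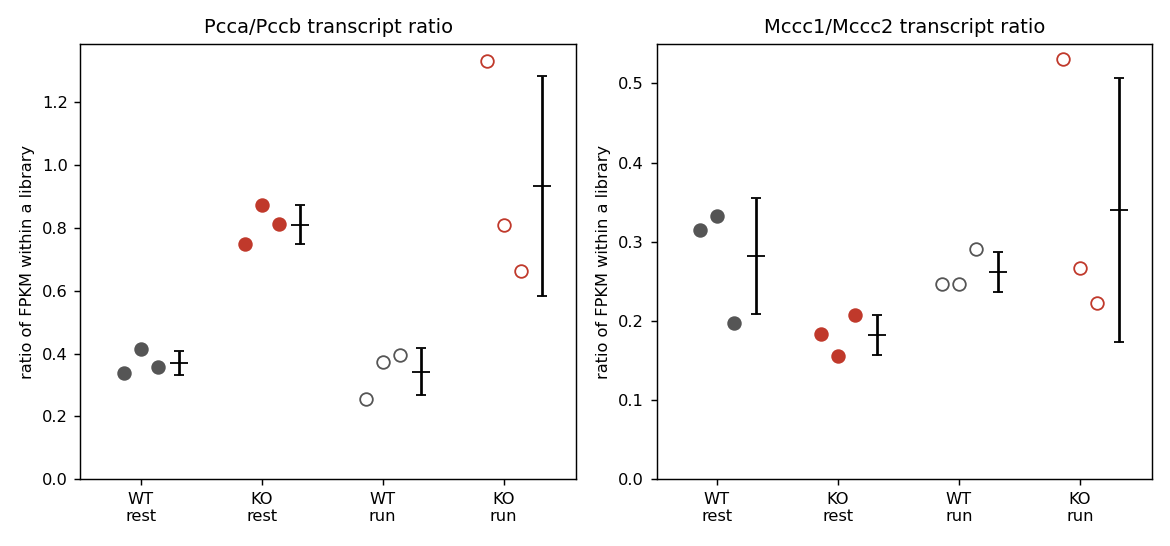
Ratio of FPKM of the biotin-carrying to the carboxyltransferase subunit within each library, for propionyl-CoA carboxylase (left) and methylcrotonyl-CoA carboxylase (right). Circles are libraries and bars the mean ± SD (n = 3). The Pcca/Pccb ratio lies at 0.256 to 0.414 in wild type and 0.663 to 1.33 in knockout, while the Mccc1/Mccc2 ratios overlap.

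Sequences upstream of the transcript start are shown for the members that rose, Ivd and Pcca, for Pccb as the partner of Pcca, and for Aldh6a1, which matched Ivd in its number of CCAAT boxes. They are the 250 bases before the start in RefSeq annotation of GRCm38.p6, which is not the build of the tables (mm9), printed 5′ to 3′ on the strand of the gene. Windows were found for 9 of the 10 members, 11 windows in all, because Pcca and Aldh6a1 have 2 annotated starts each. Mut had none. No sequence was read from the libraries. Capitals mark CCAAT or its reverse complement ATTGG.
Ivd, chr2:118861744-118861993, plus strand: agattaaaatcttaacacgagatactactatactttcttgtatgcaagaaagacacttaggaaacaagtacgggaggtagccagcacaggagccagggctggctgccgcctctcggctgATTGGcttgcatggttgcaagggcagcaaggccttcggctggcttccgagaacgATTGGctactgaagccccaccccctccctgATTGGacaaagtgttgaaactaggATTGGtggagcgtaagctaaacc
Aldh6a1 start 1, chr12:84451025-84451274, minus strand: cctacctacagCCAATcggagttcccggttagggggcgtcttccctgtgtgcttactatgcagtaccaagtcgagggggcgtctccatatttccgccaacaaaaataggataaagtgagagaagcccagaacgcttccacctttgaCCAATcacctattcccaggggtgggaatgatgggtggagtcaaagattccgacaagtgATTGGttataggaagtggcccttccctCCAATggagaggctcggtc
Pcca start 1, chr14:122484115-122484364, plus strand: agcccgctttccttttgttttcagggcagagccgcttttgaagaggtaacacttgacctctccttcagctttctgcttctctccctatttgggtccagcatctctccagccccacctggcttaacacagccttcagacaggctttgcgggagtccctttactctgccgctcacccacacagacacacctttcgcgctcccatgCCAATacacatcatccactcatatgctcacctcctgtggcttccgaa
Pcca start 2, chr14:122534078-122534327, plus strand: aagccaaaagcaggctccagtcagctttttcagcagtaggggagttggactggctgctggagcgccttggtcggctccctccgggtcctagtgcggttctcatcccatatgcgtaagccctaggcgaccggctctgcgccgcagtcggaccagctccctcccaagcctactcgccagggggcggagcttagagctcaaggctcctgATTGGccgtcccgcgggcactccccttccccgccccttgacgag
Pccb, chr9:101034885-101035134, minus strand: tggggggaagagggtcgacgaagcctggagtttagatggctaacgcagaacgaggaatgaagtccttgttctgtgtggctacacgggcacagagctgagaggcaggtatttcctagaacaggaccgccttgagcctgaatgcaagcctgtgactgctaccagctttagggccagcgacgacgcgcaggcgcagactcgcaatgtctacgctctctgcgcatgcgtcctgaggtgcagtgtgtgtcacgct
Which of the starts was used in these libraries was not measured.

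Ivd held 4 CCAAT matches, at 131, 77, 47 and 23 bases before the start, all written as ATTGG on the gene's strand. Aldh6a1 also held 4 at its start 1, and Mccc1 and Mccc2 held 3 each, a pair of those in Mccc2 overlapping each other. Among 32851 annotated windows of the same length 33.8% held at least 1 match, 2.79% at least 3 and 0.84% at least 4. At least 1 match stood in 7 of the 9 members with a window. Each start of Pcca held 1, at 47 and 44 bases before the start, while Pccb and Acadsb held none. The motifs were picked after these sequences and the expression values had been seen, and matches on either strand were counted. Of the other letters searched, GGGCGG (a GC box) stood in 5 of the 9 members and in 32.7% of all windows, CACCC (bound by Krüppel-like factors) in 7 and in 52.0%, and the nuclear receptor half-site AGGTCA in 2, Pcca start 1 and Aldh6a1 start 2, and in 14%. The E-box CACGTG stood in 1 member, Mccc2, and in 6.02% of windows, and TGATGNAA, a form of the element bound by ATF4, in 0 members and 3.45% of windows. Counts of members take any window of a gene, whereas the percentages are per window. Of the 11 member windows CCAAT stood in 9, GGGCGG in 5, CACCC in 7, AGGTCA in 2, CACGTG in 1 and TGATGNAA in 0. The match is a description of letters and not of binding.

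Counted together, more members were higher than lower in resting knockout muscle, and as many were higher as lower after exercise. At rest 8 of 10 had a positive log2 difference and 2 a negative one, Mccc1 and Pccb, beside 51.7% positive among all tested genes, with a median of 0.25 beside 0.01. Library by library, resting knockout libraries 1, 2 and 3 had a members' median of 0.19, 0.38 and 0.17 (log2, relative to the wild-type mean), with 7, 8 and 8 members above that mean. Wild-type library 1 reached 0.18 with 8 members above it, as far as knockout libraries 1 and 3. With quantile normalization of the libraries Acad8 changed sign and the split became 7 to 3. limma alone called 2 members higher and 0 lower, where it called 3.04% of all tested genes higher and 1.67% lower (4.72% in all), and 5 members had an unadjusted p under 0.05, where 21.5% of all tested genes did. The genotypes did not overlap for 5 members, 4 higher and 1 lower, beside 28% of all tested genes (15.6% higher and 12.4% lower). After exercise 5 members had a positive and 5 a negative difference, beside 49.9% positive among all tested genes, with a median of 0.02 beside 0.00, and quantile normalization gave 7 to 3, with Acadsb and Mut at 0.00. limma alone called 1 member higher and 0 lower, where it called 1.58% of all tested genes higher and 2.15% lower (3.73% in all), and 4 had an unadjusted p under 0.05 beside 19.9%. The genotypes did not overlap for 5 members, 3 higher and 2 lower, beside 26.1% of all tested genes (12.4% higher and 13.7% lower).

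**Figure D3:**
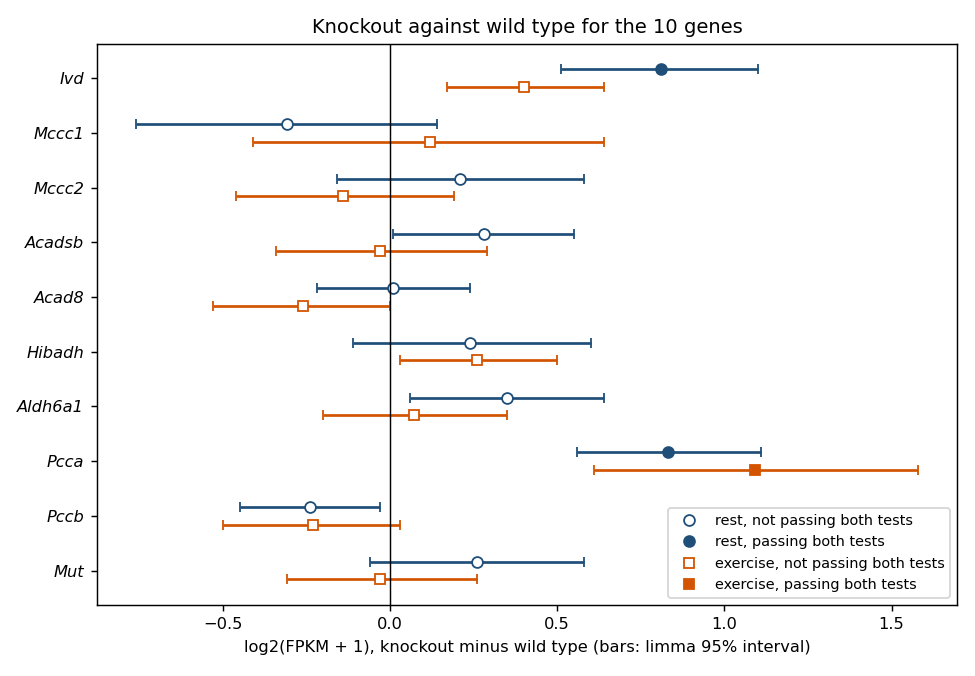
Knockout minus wild type on the log2(FPKM + 1) scale (horizontal axis) for each of the 10 genes at rest (circles) and after exercise (squares), with limma 95% intervals. Filled symbols passed both tests: Ivd and Pcca at rest, and Pcca after exercise.

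Whether the knockout difference itself changed with running was tested with a limma contrast over the 12 libraries, the effect after exercise minus the effect at rest. It called 0 of 10 members and 0% of 8854 genes tested in both conditions, and 4.89% of those genes had an unadjusted p under 0.05. Of the members, 6 had a negative value and 4 a positive one, with a median of -0.27 beside -0.04 over all genes. Ivd was the 1 member with a limma unadjusted p under 0.05. Its value was -0.40 (SE 0.15, 95% interval -0.74 to -0.07, limma adjusted p = 0.923). For Pcca the value was 0.26 (95% interval -0.30 to 0.83, limma adjusted p = 0.925), and for Pccb it was 0.00 (95% interval -0.28 to 0.28, limma adjusted p = 0.997). No member's knockout difference was shown to depend on running.

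Rest and exercise stood in separate tables that may have been scaled separately, so levels are set side by side across them without a test. The median gene shifted by -0.001 (log2) between rest and exercise in wild type and by -0.024 in knockout. In wild type the members' median was -0.02, with 4 higher and 6 lower after running. Ivd was at 44.1 ± 1.92 FPKM at rest and 50.7 ± 0.905 FPKM after exercise, and Pcca at 11.4 ± 1.04 and 10.3 ± 2.12 FPKM (SD, n = 3). In knockout the median was -0.18, with 2 higher and 8 lower. There Ivd was at 78.4 ± 11.4 and 67.4 ± 4.16 FPKM, Mccc2 at 19.7 ± 2.87 and 15.0 ± 1.58 FPKM, and Aldh6a1 at 91.5 ± 7.09 and 74.6 ± 8.04 FPKM. Pcca, at 21.1 ± 2.19 and 23.4 ± 6.22 FPKM, and Mccc1, at 3.55 ± 0.311 and 4.94 ± 1.84 FPKM, were the members with a higher mean after running in the knockout.

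Single libraries stood high or low for many members at once. Among resting knockout libraries, library 2 was highest for 8 of 10 members and library 1 lowest for 8. Among resting wild-type libraries, library 1 was highest for 6 members and library 3 lowest for 6. These 6 included Hibadh, Aldh6a1, Acadsb, Mut and Mccc1 in both cases, while Ivd and Pcca were lowest in wild-type library 1. In exercised knockout muscle library 1 was lowest for 6 members and highest for Mccc1, Hibadh and Pcca.

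**Figure D4:**
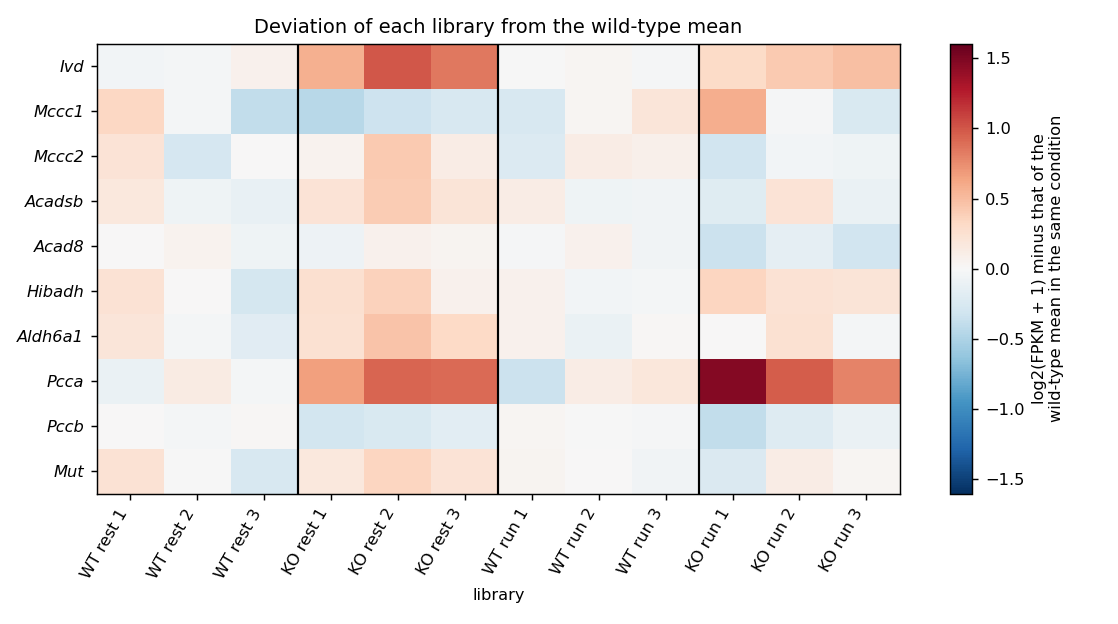
Each library's log2(FPKM + 1) minus that of the wild-type mean of its own condition, for the 10 genes (rows) and 12 libraries (columns), with red above and blue below that mean. Pcca is highest in exercised knockout library 1, and Pccb is below the wild-type mean in all 6 knockout libraries.

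Correlations between members over the 12 libraries describe the same pattern. With each condition centred on its own mean, the 45 pairs of members had a median Pearson r of 0.17, from -0.92 for Pcca with Pccb to 0.91 for Acadsb with Aldh6a1. Acadsb with Mut reached 0.88, Aldh6a1 with Mut 0.84 and Ivd with Pcca 0.79. With each group centred on its own mean, which removes the genotype difference, Acadsb with Aldh6a1 stood at 0.90, Acadsb with Mut at 0.81, Mccc1 with Pcca at 0.70 and Pcca with Pccb at -0.66. All values come from the same 12 libraries, which share depth and composition. Of 6106 genes ranked, with each condition centred on its own mean, by their likeness to the mean standardized profile of the members, C2cd2 and Rsrc1 (r = 0.91 each), Ndufa9 (a subunit of respiratory complex I, r = 0.89), Lin52 (0.89) and Sugt1 (0.88) came first. None of these 5 passed limma in either condition (lowest adjusted p = 0.172, for C2cd2 at rest). The order depended on the centring: with each group centred on its own mean Rbm28 (0.95), Sh3rf2 (0.94), Klhl31 (0.93), Ghr (0.92) and Clk1 (0.91) came first, and C2cd2, Rsrc1, Ndufa9, Lin52 and Sugt1 took ranks 19, 9, 83, 13 and 229. Each member was itself part of the mean profile, which raises its r, unlike that of the ranked genes. With conditions centred, the members closest to their own mean profile were Aldh6a1 (0.93), Mut (0.91) and Acadsb (0.87), and the lowest were Pccb (-0.35), Mccc1 (0.02), Acad8 (0.27) and Pcca (0.37). With groups centred Aldh6a1 (0.86), Mut (0.85) and Acadsb (0.77) were again the closest, while Acad8 stood at 0.71, Mccc1 at 0.32, Pccb at 0.25 and Pcca at 0.00.

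Related genes were described by lists. Of the proximal branched-chain steps and their control, 7 of 8 were tested. At rest 1 passed both tests, higher, with a list median of 0.33. It was Dbt, the transacylase core of the ketoacid dehydrogenase complex, at 11.8, 9.87 and 9.15 in wild type and 19.1, 24.1 and 17.3 FPKM in the knockout (limma adjusted p = 0.022). Without 1 library it kept its call only when wild-type library 1 was left out (limma adjusted p 0.0335, and 0.0521 to 0.0981 in the other fits). The authors' deposited table alone also called Ppm1k, the phosphatase that activates the ketoacid dehydrogenase and named here after its values were seen, higher at rest (10.8 against 15.7 FPKM, q = 0.011, limma adjusted p = 0.257). After exercise limma and the authors' deposited table each called 0 of 7 (1 with a limma unadjusted p under 0.05), with a median of 0.00, and Dbt measured 11.7 in wild type and 15.7 FPKM in the knockout (limma adjusted p = 0.175). Of 11 other distal enzymes 8 were tested, and 1 rose at rest (median 0.10). After exercise limma and the authors' deposited table each called 0 (4 with a limma unadjusted p under 0.05, median -0.16). There 2 of the 8 had a positive and 6 a negative log2 difference. Echs1, the enoyl-CoA hydratase shared by valine, isoleucine and fatty acid oxidation, rose at rest from 76.5, 71.2 and 76.6 FPKM to 136, 185 and 133 FPKM (limma adjusted p = 0.0162). The call was lost when wild-type library 2 (limma adjusted p = 0.0754), knockout library 1 (0.0502) or knockout library 3 (0.0507) was left out. After exercise Echs1 measured 90.4 in wild type and 123 FPKM in the knockout (limma adjusted p = 0.1). The other genes of this list with an unadjusted p under 0.05 there were lower in the knockout, without overlap, and are named after their values were seen. They were Hsd17b10 (42.3 against 32.1 FPKM, limma adjusted p = 0.106), Mcee (55.1 against 43.9 FPKM, 0.15) and Oxct1 (171 against 143 FPKM, 0.232).

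Genes that supply or repair the cofactors of these enzymes gave no call. Of 10 such genes for biotin and cobalamin, 10 were tested at rest and 8 after exercise, and limma and the authors' deposited table called 0 in each (2 and 1 with a limma unadjusted p under 0.05), with medians of 0.03 and 0.16. Mmadhc and Mmachc, which handle cobalamin and were the most abundant, stood at 63.3 against 61.6 FPKM and 25.5 against 26.4 FPKM in resting wild type against knockout. All 3 other biotin carboxylases were tested and 0 passed limma in either condition (1 and 2 with a limma unadjusted p under 0.05), with medians of 0.25 and 0.33. The authors' deposited table alone called 1 of them, Acaca, higher in both conditions (4.06 against 6.67 FPKM at rest, limma adjusted p = 0.0595). Pcx, pyruvate carboxylase, measured 9.62 in wild type and 11.3 FPKM in knockout at rest (limma adjusted p = 0.516), and the acetyl-CoA carboxylase Acacb measured 28.1 and 26.8 FPKM (limma adjusted p = 0.877). Of 12 other acyl-CoA dehydrogenases and their electron acceptors 11 were tested, and 0 passed limma at rest or after exercise (5 and 1 with a limma unadjusted p under 0.05), with medians of 0.32 and 0.06. The authors' deposited table alone called Gcdh higher and Acads lower at rest, and Acads lower after exercise (33.7 against 15.8 FPKM, limma adjusted p = 0.0771). Acadm, for medium-chain substrates, measured 179 and 238 FPKM at rest (limma adjusted p = 0.136), and Acadvl, for very long chains, 207 and 227 FPKM (limma adjusted p = 0.558). Of 6 genes for other entry to propionyl-CoA only Cth was tested, a lyase that releases the ketobutyrate from which propionyl-CoA is made. Cth rose at rest from 2.5, 0.963 and 1.27 FPKM to 6.06, 6.02 and 5.79 FPKM (limma adjusted p = 0.0162). It lost its call without wild-type library 2 (limma adjusted p 0.0754) or without knockout library 1 (0.0598), 2 (0.0504) or 3 (0.0666). After exercise Cth measured 2.12 in wild type and 4.36 FPKM in the knockout, called by the authors' deposited table (q = 0.0217) and not by limma (adjusted p = 0.106).

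Neighbouring mitochondrial lists were mostly not called. Of 10 other aldehyde and hydroxyacid dehydrogenases 8 were tested at rest and 9 after exercise, and limma called 0 (3 and 2 with a limma unadjusted p under 0.05), with medians of 0.03 and -0.02. The authors' deposited table alone called Hadh higher and Aldh4a1 and Bdh1 lower at rest, and Aldh4a1 and Bdh1 lower after exercise. These genes called by that table alone are named after their values were seen, apart from Hadh. Hadh, of fatty acid oxidation, measured 83.7 and 113 FPKM at rest (limma adjusted p = 0.103). Among 14 mitochondrial content genes, all tested, 1 passed both tests in each condition, and the medians were 0.11 at rest and -0.07 after exercise. It was Tfam, which maintains mitochondrial DNA, higher in knockout at 15.3 against 27.4 FPKM at rest (limma adjusted p = 0.0141) and 15.2 against 24.0 FPKM after exercise (limma adjusted p = 0.0313). At rest the adjusted p was 0.0695 once wild-type library 2 was left out and 0.0507 once knockout library 3 was, and every fit without 1 library missed the threshold after exercise (0.0584 to 0.107). Among 10 factors linked to control of these genes, 9 were tested at rest and 8 after exercise, with medians of 0.16 and 0.31, and 1 passed both tests in each. It was the nuclear receptor Esrrg, at 6.70, 6.85 and 5.87 in wild type and 13.9, 12 and 16.7 FPKM in knockout at rest (limma adjusted p = 0.0154), and 7.05, 5.07 and 6.23 FPKM against 17.6, 15.8 and 12.3 FPKM after exercise (limma adjusted p = 0.0152). The resting limma call ended when wild-type library 2 (0.0754) or, among knockout libraries, library 1 (0.0569) or 3 (0.0546) was left out, and 4 of 6 such fits ended the exercise call (limma adjusted p up to 0.0612). Klf15, a regulator of branched-chain catabolism genes that is named here after its values were seen, measured 10.4 and 17.2 FPKM at rest (limma adjusted p = 0.404, but q = 0.00119 in the authors' deposited table) and 18.1 and 25.2 FPKM after exercise (limma adjusted p = 0.339, and q = 0.0647 in the authors' deposited table). Its resting libraries overlapped between genotypes, at 9.77, 7.72 and 13.6 FPKM against 8.33, 24.6 and 18.6 FPKM.

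**Figure D5:**
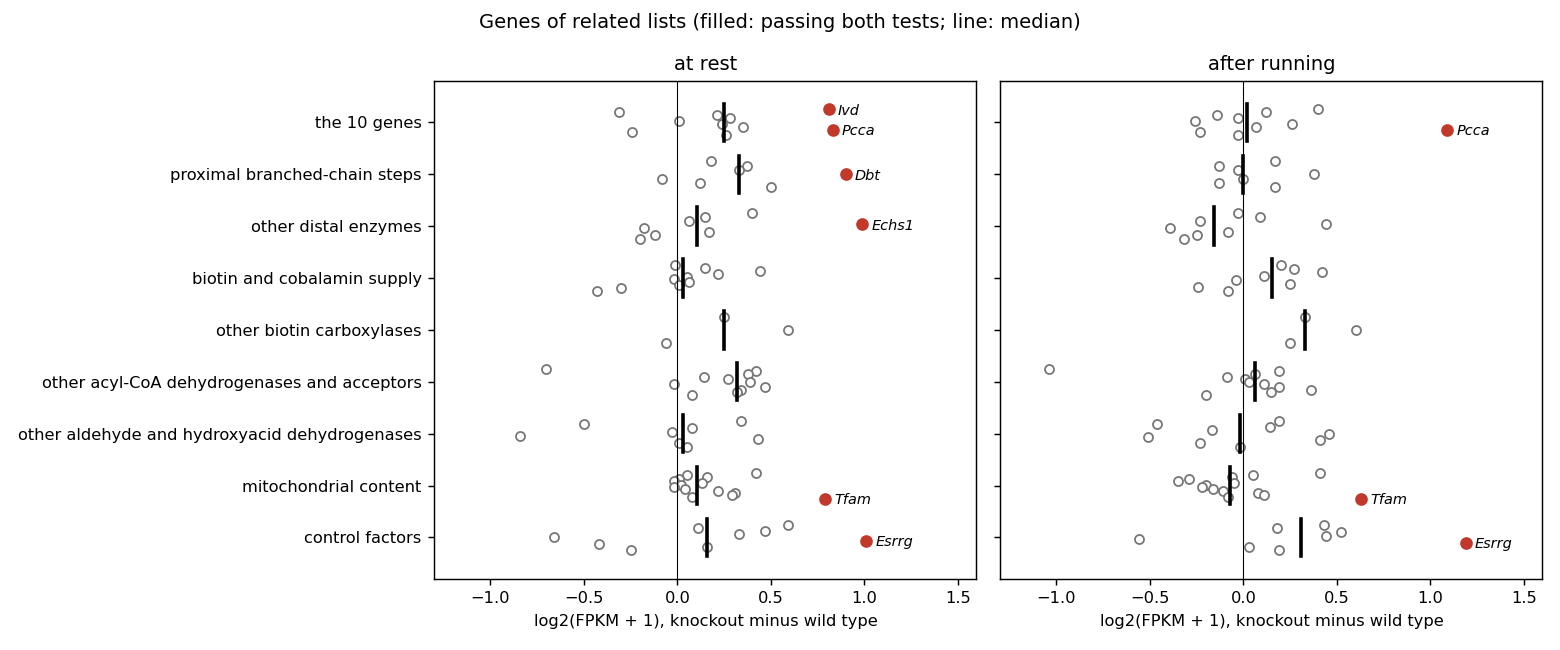
Knockout minus wild type on the log2(FPKM + 1) scale (horizontal axis) for each tested gene of the 10 members and 8 related lists (Cth, the single tested gene of its list, is not drawn), at rest (left) and after exercise (right). Filled points passed both tests and lines mark list medians. The filled points are Ivd, Pcca, Dbt, Echs1, Tfam and Esrrg at rest, and Pcca, Tfam and Esrrg after exercise.

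Markers of cell types were set beside these results, and those named were picked after their values were seen. After exercise, where Pcca rose, 2 of 4 tested macrophage markers also rose in the knockout, beside 1.39% of 9037 tested genes. They were Cd68, from 0.888 ± 0.545 to 4.26 ± 1.45 FPKM (limma adjusted p = 0.0372), and Mrc1, from 2.80 ± 0.200 to 7.10 ± 1.21 FPKM (limma adjusted p = 0.0144). All 4 had a positive log2 difference there, and the authors' deposited q called 3 of them higher, beside 4.66% of tested genes. Cd68 lost its call in 4 of 6 fits without 1 library (limma adjusted p up to 0.109) and Mrc1 in 1, without wild-type library 2 (0.0548). At rest 0 of 4 passed limma (0 with an unadjusted p under 0.05), with 2 positive and 2 negative log2 differences. Resting Mrc1 measured 5.73, 3.74 and 4.54 in wild type and 7.68, 5.8 and 5.77 FPKM in knockout, without overlap. Of 9 tested muscle fibre markers Des, an intermediate filament protein, rose in the knockout in both conditions (limma adjusted p = 0.0271 and 0.0379). Its call was lost in 5 of 6 fits without 1 library at rest (limma adjusted p up to 0.118) and in 6 of 6 after exercise (up to 0.0982). No other fibre marker passed limma. Of the 9, 7 had a positive and 2 a negative log2 difference at rest, and 3 and 6 after exercise. Tnnt3 was lower in every exercised knockout library (14624, 15989 and 15781 FPKM) than in exercised wild type (19709, 19003 and 18885 FPKM). Neutrophil markers, 4 of 4 listed, summed to 5.06 to 510 FPKM in wild type and 3.39 to 7.41 FPKM in knockout at rest, and to 1.86 to 12.6 and 2.14 to 332 FPKM after exercise. The high sums came from 1 library in each condition, resting wild-type library 2 (S100a8 at 240 FPKM, 1.79 to 4.37 FPKM in the other resting wild-type libraries) and exercised knockout library 3 (S100a8 at 156 FPKM). Resting wild-type library 2 is among those whose removal ended the calls of Ivd and Pcca, with log2 differences of 0.79 and 0.90 without it, and without exercised knockout library 3 that of Pcca was 1.24. No tested neutrophil, white adipocyte, fibroblast, endothelial, Schwann cell or red blood cell marker passed limma in either condition. The authors' deposited table alone called 4 of 4 neutrophil and 2 of 6 fibroblast markers lower in the resting knockout, and 2 of 3 tested neutrophil markers higher after exercise. The part of these markers in the results for the members was not tested.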

How the data were processed

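RNA-seq libraries from quadriceps muscle were grouped by the genotype, condition and replicate number in their titles. The 4 GRO-seq samples were not analysed here. The authors deposited 1 table per condition with FPKM of each library, normalized to transcript length and library size, with their own p-values and q-values. The submitters' processing notes name TopHat2, Bowtie, Cuffdiff and HOMER with mm9. For versions, annotation, strandedness and Cuffdiff settings, the sources used here give none. No counts were used, and steps of whole reads were not recovered (log2 ratios of small RNA genes had a median interquartile range of 0.93 over 66 library pairs).

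Only genes with a deposited p under 1 were analysed (9204 resting, 9037 exercised): adjusting those p-values by Benjamini-Hochberg gave the deposited q-values to within 0.000109. A spreadsheet had turned 27 names of the exercise table into dates, and those rows were left out. limma 3.58.1 (R 4.3.3), checked on simulated data, was fitted per table to log2(FPKM + 1) of the tested genes, two-sided, with a variance trend, no covariate and Benjamini-Hochberg adjustment at 0.05. Differences on this scale understate the change of low genes. Any 2 libraries had at most 1 identical value in 8960 genes.

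The members, lists and tests were chosen with earlier results of these data known. Named genes were all members, Hdac3, list genes passing both tests (or the 2 of highest FPKM) and the 5 most alike in profile with a mean of at least 5 FPKM. One gene that this rule names is not reported here. Alternatives were other pseudocounts, filters and scalings, a replicate block, a fit over 12 libraries and leaving out each library.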

Additional observations from a re-analysis of the deposited data

Results flagged for a closer look

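Mccc2 was flagged because all 3 knockout libraries were above the wild-type mean at rest and all 3 were below it after exercise. The library closest to that mean was at 0.055 (log2) at rest and at -0.047 after exercise. The share of all genes with this pattern was not counted. The libraries of the genotypes overlapped in both conditions, and the limma contrast of the 2 effects did not pass (log2 difference -0.35, SE 0.21, adjusted p = 0.923, 12 libraries).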

How the results depend on the processing

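Under the alternatives run, no called member changed direction. The resting fit called 434 genes and the exercise fit 337. These became 247 and 109 with no filter on low genes, 672 and 586 in one fit over the 12 libraries, 998 and 865 by the authors' deposited q, and 20 to 292 and 70 to 103 when 1 library was left out. Without wild-type library 2 the resting count was 20, and without knockout library 3 it was 54. Both those fits called 0 members, so members called higher ranged from 0 to 2 at rest, and they were 0 in each such fit after exercise. The single exercise call, Pcca, was also lost with no filter (0 members), while the fit over 12 libraries called 2 by adding Ivd (log2 difference 0.40, limma adjusted p = 0.0472).

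Whether replicate numbers pair the libraries is not given in the labels. Deviations of same-numbered libraries correlated at 0.00 to 0.05 at rest and at -0.33 to 0.03 after exercise. Those of differently numbered libraries correlated at -0.13 to 0.08 and at -0.14 to 0.36. Such values cannot decide whether a pairing exists. With the number as a replicate block limma called 52 genes at rest and 170 after exercise, with 0 members higher in either (adjusted p = 0.0579 for Ivd and 0.0518 for Pcca at rest, 0.0656 for Pcca after exercise). The contrast of the effects called 0 genes, and 0 to 1 without 1 library (1 without exercised wild-type library 3).

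Signs turned only for members near 0. Quantile normalization put Acad8 at -0.02 at rest and Acadsb and Mut at 0.00 after exercise. With 1 library left out, Acad8 ranged from -0.02 to 0.06 at rest. After exercise Mccc1 ranged from -0.12 to 0.29, Acadsb from -0.15 to 0.06, Aldh6a1 from -0.01 to 0.13 and Mut from -0.10 to 0.08. In the contrast Hibadh ranged from -0.11 to 0.15 and Pccb from -0.06 to 0.08. The cause of these shifts was not tested. Centring each group moved the median correlation between members from 0.17 to 0.28. With 3 libraries a group and depth unknown, small differences of single members were not detectable.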
